A study of Mus musculus with 2 samples.

Results

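The proteasome and immunoproteasome genes of mouse macrophages were described in 2 stimulated libraries. Members were the genes whose symbol starts with Psma, Psmb, Psmc, Psmd, Psme, Psmf or Psmg followed by a digit and that have a protein-coding transcript, which selected 50 of 55536 mouse genes. Another 4 entries, Psmb5-ps, Psmb6-ps, Psmb6-ps2 and Psmb7-ps2, matched by symbol but had no coding transcript, and all 4 had 0 counts in both libraries. Within the members, 5 immunoproteasome genes (Psmb8, Psmb9, Psmb10, Psme1 and Psme2) were set against 3 constitutive catalytic genes (Psmb5, Psmb6 and Psmb7).

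Macrophages had been grown from bone marrow of C57BL/6J mice, as primary cells rather than a line, and were exposed to 100 ng/ml of stimulus for 120 minutes before polyadenylated RNA was sequenced. The labels disagree on the stimulus, naming lipid A in the description and lipoprotein A in the treatment and source fields. The samples form 1 group of 2 libraries, biological replicates 1 and 2. Both point to 1 donor entry, so whether they come from separate animals is not known and the spread between them may be technical. The labels do not give age or sex. No unstimulated libraries were analysed here, so every value describes stimulated cells and none measures a response, and with 1 group of 2 no test between conditions was possible. The gene tables held 33319563 and 50334059 estimated counts in replicates 1 and 2. All 8 macrophage markers examined reached 1 TPM in both libraries, as did 4 of 8 granulocyte and 1 of 4 B cell markers, and 0 of 5 T cell, 0 of 3 NK cell, 0 of 4 dendritic cell and 0 of 4 stromal markers. TPM scales abundance by length and by library, so it allows levels of different genes to be compared.

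The proteasome is the protease that degrades proteins tagged with ubiquitin. Its 20S core is a barrel of alpha and beta rings, and in its constitutive form the beta subunits encoded by Psmb5, Psmb6 and Psmb7 cut peptide bonds. The 19S cap, built from the Psmc ATPases and the Psmd subunits, binds, unfolds and feeds in the substrate. In cells of the immune system and in cells exposed to interferon, Psmb8, Psmb9 and Psmb10 encode catalytic subunits that take the places of Psmb5, Psmb6 and Psmb7 in newly built cores, giving the immunoproteasome, which favours the peptides that MHC class I presents. Psme1 and Psme2 encode the subunits of PA28 alpha-beta, a ring that caps the core in place of 19S and is also linked to interferon.

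Of the 5 immunoproteasome genes, 4 lie in pairs. In mm10 coordinates, Psmb8 lies at chr17:34197721-34201454 on the plus strand and Psmb9 at chr17:34181987-34187764 on the minus strand, both in the MHC class II region beside the peptide transporter genes. Psme1 at chr14:55578123-55581529 and Psme2 at chr14:55587441-55591113 lie close together on opposite strands. Psmb10 lies apart at chr8:105935735-105938444. The constitutive genes are spread over chr14:54614119-54618022 (Psmb5), chr11:70525367-70527858 (Psmb6) and chr2:38588036-38644087 (Psmb7).

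RefSeq promoters of build GRCm38.p6, which run from 250 bases before to 50 bases after a gene's start, were matched by symbol for 42 of the 50 members. Of the 8 contrasted genes, Psmb7 was not among the 42, so its promoter was not searched. The 3 printed here are the other contrasted genes' promoters with a match to the ISRE or the ARE on either strand, in capitals. The ISRE is the interferon-stimulated response element (GAAANNGAAA) and the ARE the antioxidant response element (TGACNNNGC). Factors of the IRF family bind the ISRE and Nfe2l1, a factor that drives proteasome genes when the proteasome is impaired, binds AREs.
Psme1 promoter, chr14:55578244-55578543, plus strand: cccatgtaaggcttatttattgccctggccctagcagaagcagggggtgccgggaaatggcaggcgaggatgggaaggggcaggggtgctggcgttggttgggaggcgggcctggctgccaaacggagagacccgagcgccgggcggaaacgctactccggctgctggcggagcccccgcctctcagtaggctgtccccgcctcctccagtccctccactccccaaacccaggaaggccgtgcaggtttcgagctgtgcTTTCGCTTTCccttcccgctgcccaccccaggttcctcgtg
Psmb5 promoter, chr14:54617946-54618245, minus strand: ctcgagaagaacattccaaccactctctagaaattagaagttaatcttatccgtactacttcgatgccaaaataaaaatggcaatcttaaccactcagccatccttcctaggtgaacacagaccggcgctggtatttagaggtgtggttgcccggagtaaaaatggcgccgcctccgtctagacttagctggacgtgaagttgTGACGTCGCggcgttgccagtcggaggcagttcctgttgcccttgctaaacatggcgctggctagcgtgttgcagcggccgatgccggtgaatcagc
Psmb6 promoter, chr11:70525107-70525406, plus strand: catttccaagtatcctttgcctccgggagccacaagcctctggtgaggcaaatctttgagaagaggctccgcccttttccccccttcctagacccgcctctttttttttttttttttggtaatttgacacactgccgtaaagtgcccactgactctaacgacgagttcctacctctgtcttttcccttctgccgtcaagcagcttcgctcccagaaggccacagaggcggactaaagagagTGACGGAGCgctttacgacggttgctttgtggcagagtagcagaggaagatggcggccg
The Psme1 match is an ISRE read on the opposite strand, 9 bases after the RefSeq start. That RefSeq start lies 134 bases downstream of the start of the Psme1 transcript that led here. The ARE matches begin at positions -47 in Psmb5 and -9 in Psmb6. Of the 5 immunoproteasome genes, 1 window held an ISRE and 0 held an ARE, and of 34 other members with a promoter, chaperones, activators and the inhibitor included, 4 held an ISRE and 6 an ARE. Among the 25 of these that are constitutive core or 19S genes, 2 held an ISRE and 4 an ARE. Over all 32817 promoters the shares were 3.43% for the ISRE and 12.4% for the ARE. The gamma-activated site (GAS, TTCNNNGAA) was matched in Psmb8 alone of the 5 and in 2 of the 34, against 8.29% of all promoters, and the kappa-B site in 0 of the 5 and 6 of the 34, against 8.46%. The RefSeq starts of Psmb8 and Psmb9 lie 474 and 434 bases downstream of the start of the transcripts that led here, so those windows do not reach it. Psmb7 is named only, as no promoter was matched for it. A match describes letters in a window and was not tested as a binding site.

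Nearly every core and cap gene was expressed. Both libraries reached 1 TPM for 47 of the 50 members, 20 TPM for 39 and 100 TPM for 12. The members' median was 69.6 TPM, and 78.2 TPM over those at 1 TPM or more in both libraries, against 14.1 TPM for the 10285 genes at that level in both. All subunits of the constitutive core and of 19S stood above the 73.9th percentile of those 10285 genes, the lowest being Psmc6. Together the members made up 4949 and 4486 TPM in replicates 1 and 2, from 112272 and 147903 counts. These are transcript levels in bulk RNA, in which fewer cells of a type and less RNA per cell cannot be told apart, and they say nothing of the subunits' incorporation into particles.

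**Figure D1:**
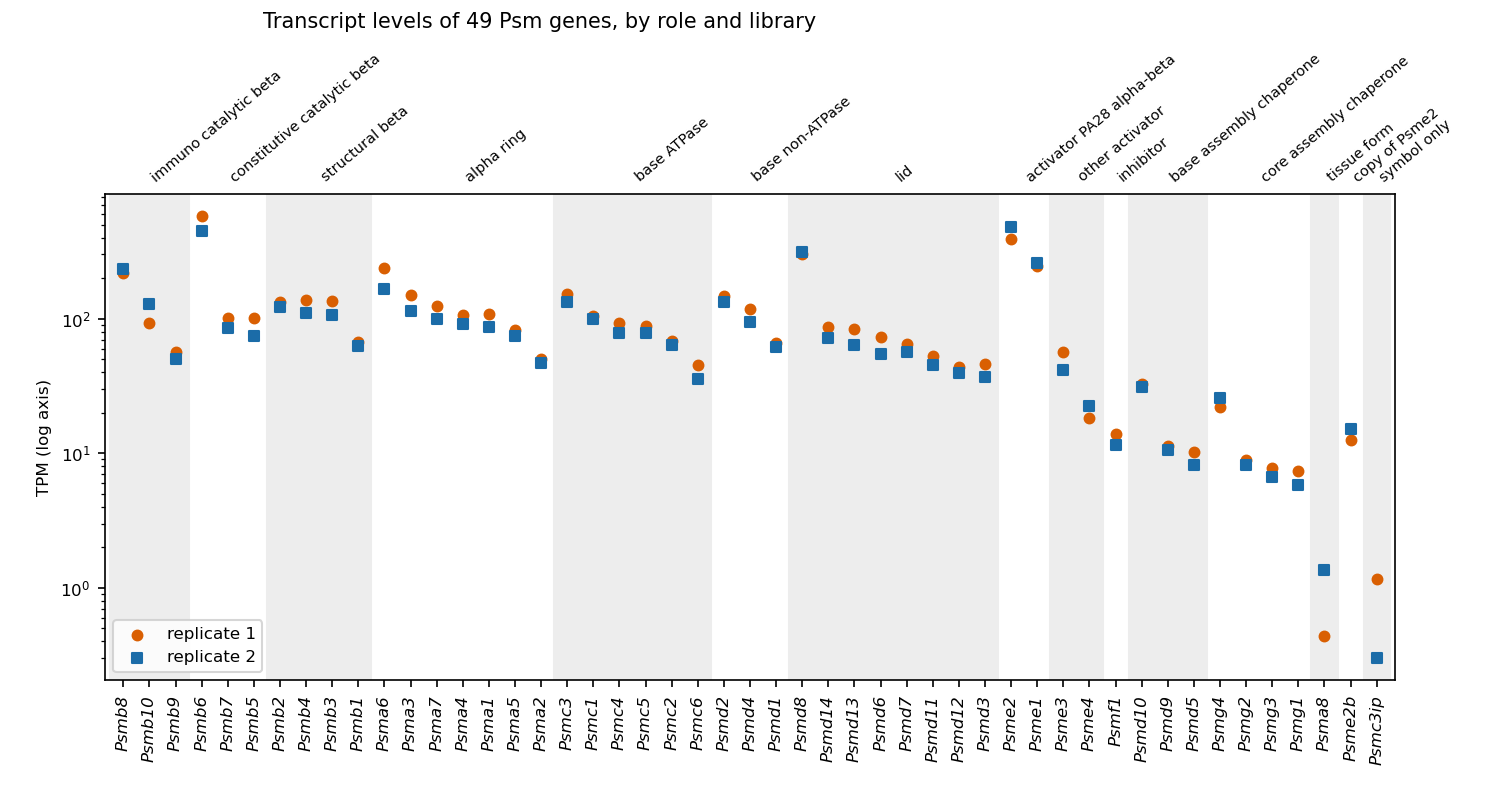
TPM (log axis) of the 49 members with a level above 0, ordered by role and, within a role, by mean TPM. Circles are replicate 1 and squares replicate 2. Psmb6 is the highest point in both libraries among catalytic genes (574 and 451 TPM), Psmb8 is above Psmb10 and Psmb9, and the assembly chaperones lie below the ring and cap subunits other than Psma8, the testis form.

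Psmb8 was the most abundant immunoproteasome catalytic transcript and Psmb9 the least. Psmb8, which encodes the subunit that replaces Psmb5's product, stood at 217 and 233 TPM in replicates 1 and 2. Psmb10, whose product replaces that of Psmb7, stood at 92.0 and 128 TPM. Psmb9, whose product replaces that of Psmb6, stood at 56.6 and 49.8 TPM. The order was the same in both libraries, and the 3 genes did not overlap. Among the constitutive genes, Psmb6, which encodes the caspase-like subunit, reached 574 and 451 TPM and was the most abundant of all 50 members on average. Psmb5, for the chymotrypsin-like subunit, stood at 102 and 74.9 TPM, and Psmb7, for the trypsin-like subunit, at 100.3 and 85.3 TPM. Psmb5 and Psmb7 overlapped between the libraries and did not differ beyond their spread.

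The 3 catalytic positions had different balances of immunoproteasome and constitutive transcripts, each taken here as a ratio of TPM with an exact 95% Clopper-Pearson interval for counting error. Psmb8 exceeded Psmb5 by 2.13-fold in replicate 1 (2.00 to 2.27) and 3.11-fold in replicate 2 (2.93 to 3.29), a log2 ratio of 1.36 ± 0.38 (SD, n = 2). Psmb9 stood at 0.0986 of Psmb6 in replicate 1 (0.0927 to 0.105) and 0.110 in replicate 2 (0.105 to 0.116), a log2 ratio of -3.26 ± 0.11 (SD, n = 2). Psmb10 stood at 0.918 of Psmb7 in replicate 1 (0.860 to 0.979) and 1.504 in replicate 2 (1.43 to 1.58), a log2 ratio of 0.23 ± 0.50 (SD, n = 2). The second quantification (kallisto) gave 0.838 and 1.30 for Psmb10 over Psmb7, below both intervals, with a mean log2 ratio of 0.06. It gave 0.1052 and 0.121 for Psmb9 over Psmb6, above both intervals, and 2.08 and 3.05 for Psmb8 over Psmb5, within them. The first pair was above 1 and the second below 1 in both libraries, while the third lay on different sides of 1, with a mean smaller than its spread. In sum, Psmb8, Psmb9 and Psmb10 had 365 and 411 TPM, against 776 and 611 TPM for Psmb5, Psmb6 and Psmb7, a log2 ratio of -0.83 ± 0.36 (SD, n = 2). That sum turned with a single pair. Without Psmb9 and Psmb6, an alternative added after the data were seen, the immunoproteasome genes were the higher, at 309 and 361 TPM against 202 and 160 TPM, a log2 ratio of 0.89 ± 0.40 (SD, n = 2). Transcripts without a coding annotation also bore on the pairs and on both sums. Over protein-coding transcripts alone, Psmb10 stood at 65.8 and 90.4 TPM against 100.1 and 85.1 TPM for Psmb7, and their mean log2 ratio changed sign to -0.26. On the same scale Psmb8 stood at 156 and 182 TPM against 102 and 74.9 TPM for Psmb5. The excess of Psmb8 and Psmb10 together over Psmb5 and Psmb7 was thus smaller there in both libraries.

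**Figure D2:**
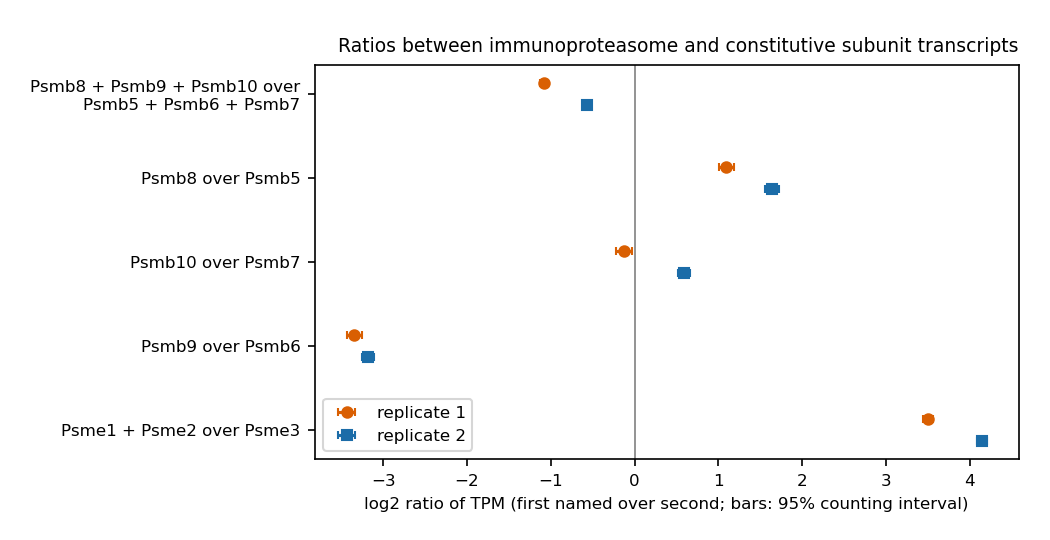
Log2 ratio of TPM, immunoproteasome over constitutive transcripts, in each library, with the last line giving PA28 alpha-beta over PA28 gamma. Bars are 95% counting intervals and the vertical line marks equal levels. Psmb8 over Psmb5 and PA28 lie right of the line in both libraries, Psmb9 over Psmb6 lies at -3.34 and -3.18, and Psmb10 over Psmb7 lies on both sides at -0.12 and 0.59.

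The PA28 alpha-beta genes were the most abundant of the activators. Psme2, for the beta subunit, stood at 390 and 479 TPM in replicates 1 and 2 and was the second most abundant member. Psme1, for the alpha subunit, stood at 247 and 259 TPM. Both were far above Psme3, which encodes the nuclear PA28 gamma and had 56.5 and 41.8 TPM, with no overlap between libraries. The sum of Psme1 and Psme2 was 11.3-fold that of Psme3 in replicate 1 (10.8 to 11.8) and 17.7-fold in replicate 2 (17.002 to 18.4), a log2 ratio of 3.82 ± 0.46 (SD, n = 2). For that sum over Psme3, the second quantification gave 9.597-fold and 13.961-fold in replicates 1 and 2, below both intervals. Its mean log2 ratio was 3.53, and that over protein-coding transcripts alone in the first quantification was 3.55. Over all transcripts of the first quantification, Psme1 alone exceeded Psme3 by 4.37-fold and 6.20-fold. Psme2 exceeded Psme1 by 1.58-fold and 1.85-fold, although the subunits share rings. The wider gap in replicate 2 was not seen over protein-coding transcripts alone. There Psme2 stood at 333.6 and 331.9 TPM in replicates 1 and 2, against 225.4 and 240.5 TPM for Psme1. Psme4, for the large PA200 activator, stood at 18.3 and 22.3 TPM, and Psmf1, for the inhibitor PI31, at 13.8 and 11.5 TPM. Psme2b, a coding copy of Psme2 on chromosome 11, stood at 12.5 and 15.2 TPM, or 0.0319 and 0.0317 of Psme2. In the annotation, 76.5% of the 31-base words of Psme2b transcripts are also in Psme2, so reads can be split between them and the level of Psme2b is uncertain.

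The 7 alpha-ring genes, which form the outer gates of the core, had a median of 98.9 TPM. Psma6 was the highest at 238 and 165 TPM in replicates 1 and 2 and Psma2 the lowest at 50.4 and 46.7 TPM, with no overlap. The 4 structural beta genes, whose products do not cut, were closer together, by mean from Psmb2 at 132 and 121 TPM to Psmb1 at 67.6 and 62.2 TPM, and Psmb2, Psmb3 and Psmb4 overlapped. Of the 14 constitutive core genes, which the particle uses in equal numbers, 10 lay within 1.5-fold of their median of 105 TPM. Psmb6 was 10.6-fold above Psma2, the widest gap among the 14. Next below Psmb6 came Psma6, and no library of Psma6 reached the Psmb6 levels.

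The 19S genes had a lower median, 73.4 TPM over 17 genes, of which 11 lay within 1.5-fold of it. Among the 6 ATPases of the base, which unfold the substrate, Psmc3 was highest at 152 and 133 TPM and Psmc6 lowest at 45.3 and 35.8 TPM. Among the other base subunits, the scaffold gene Psmd2 stood at 148 and 132 TPM and the scaffold gene Psmd1 at 66.5 and 62.1 TPM, with the ubiquitin receptor gene Psmd4 between. In the lid, which removes ubiquitin through the enzyme encoded by Psmd14, Psmd8 stood at 302 and 315 TPM and Psmd3 at 45.7 and 36.6 TPM. Psmd8 was the third most abundant member and was 7.61-fold above Psmc6, the widest gap in 19S. The other 7 lid genes averaged between 41.1 and 79.0 TPM.

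Assembly chaperones were less abundant than the subunits expressed here. Of the chaperones of the 19S base, Psmd10, which encodes gankyrin, stood at 32.7 and 31.1 TPM, Psmd9 at 11.4 and 10.6 TPM and Psmd5 at 10.2 and 8.25 TPM. Of the chaperones of the core, Psmg4 stood at 22.2 and 25.6 TPM and Psmg1 at 7.40 and 5.81 TPM, with Psmg2 and Psmg3 between. All 7 were below every constitutive core gene, every immunoproteasome catalytic gene and all 17 genes of 19S in both libraries. The core chaperones rest on few reads, from 118 to 156 counts in replicate 1 and 136 to 209 in replicate 2. Pomp, the maturation factor that brings the parts of the core together and is no member by symbol, stood at 270 and 280 TPM, above all 7.

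The remaining 3 members were at or near the floor. Psmb11, the beta subunit of the thymus, had 0 counts in both gene tables, which allows at most 0.0902 and 0.0597 CPM in replicates 1 and 2 without TMM factors (3 counts per library, counting error only). The second quantification gave it 0.103 and 0.0178 TPM. Psma8, the alpha subunit of the testis, had 14 and 62 counts, or 0.44 and 1.35 TPM. Psmc3ip, a meiotic recombination factor that matches by its symbol alone and is no proteasome subunit, had 22 and 10 counts, or 1.16 and 0.30 TPM.

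The members differed little between the libraries. The ratio of replicate 2 over replicate 1 was taken on CPM, counts scaled to library size, with TMM factors where a gene's mean count was at least 50, which 47 of the 50 members passed. Of these 47, 1 lay 1.5-fold or more apart, Psmb10 at 48.4 and 72.7 CPM, against 14.6% of all 10445 genes at this count. None of the 47 lay 2-fold or more apart, against 3.99% of all genes. All genes were not matched to the members in level, so counting error was not matched either. Among genes at 1 TPM or more in both libraries, the members' median was 78.2 TPM and that of all genes 14.1 TPM. The members' median distance was 0.16 on the log2 scale and that of all genes 0.24, with a biological coefficient of variation of 21.5% over 12178 genes. The median log2 ratio of the members was -0.08 and that of all genes 0.03, and 31 of the 47 members were lower in replicate 2, against 46.5% of all genes. Behind Psmb10, at a log2 ratio of 0.59, the members furthest apart were Psme2b at 0.41, Psme4 at 0.40, Psma6 at -0.40 and Psme3 at -0.31. With 1 library on each side these are descriptions with no test.

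The immunoproteasome and the constitutive catalytic genes differed in direction between the libraries. All 5 immunoproteasome genes were higher in replicate 2, from 0.08 for Psmb9 to 0.59 for Psmb10 on the log2 scale, with a median of 0.16. All 3 constitutive catalytic genes were lower, from -0.31 for Psmb5 over -0.22 for Psmb6 to -0.10 for Psmb7. Of the 11 other constitutive core genes, 8 were lower in replicate 2, with a median of -0.16, and 3 (Psma2, Psmb1 and Psmb2) were higher, against 46.5% of all genes lower and 53.5% higher. Of the 17 genes of 19S, 13 were lower, with a median of -0.08. The 5 and the 3 genes did not overlap on any of 5 scales tried (CPM and TPM of each quantification, and TPM over coding transcripts). These scales re-read the same 2 libraries, and the gap, set by Psmb9 and Psmb7, was narrow on some. By TPM these 2 genes stood at -0.18 and -0.23, and by the second quantification's TPM at -0.30 and -0.36. How often such a gap arises among all genes was not tested. The signs did depend on the scale, since the 5 immunoproteasome genes were all higher on both CPM scales, while 4 were higher by TPM, 3 by coding TPM and 1 by the second quantification's TPM. By TPM all 14 constitutive core genes were lower, on a scale where the median of all genes was itself at -0.10. The libraries also differed in other markers. The 8 granulocyte markers summed to 517 and 67.2 TPM in replicates 1 and 2, with 4 of 8 at 1 TPM or more in both and Ly6g, which had 4 and 0 counts, at 0 in replicate 2. The 4 that had enough counts for a ratio were all lower in replicate 2 by more than 1.5-fold. Of the 4 dendritic cell markers, which summed to 6.00 and 1.73 TPM, the 3 with enough counts were all lower in replicate 2, and 2 of these by more than 1.5-fold. The 8 macrophage markers summed to 18601 and 24132 TPM, a difference carried by Lyz2, the lysozyme gene, at 13518 and 19283 TPM, and the other 7 summed to 5083 and 4849 TPM. Their part in the proteasome ratios was not tested.

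**Figure D3:**
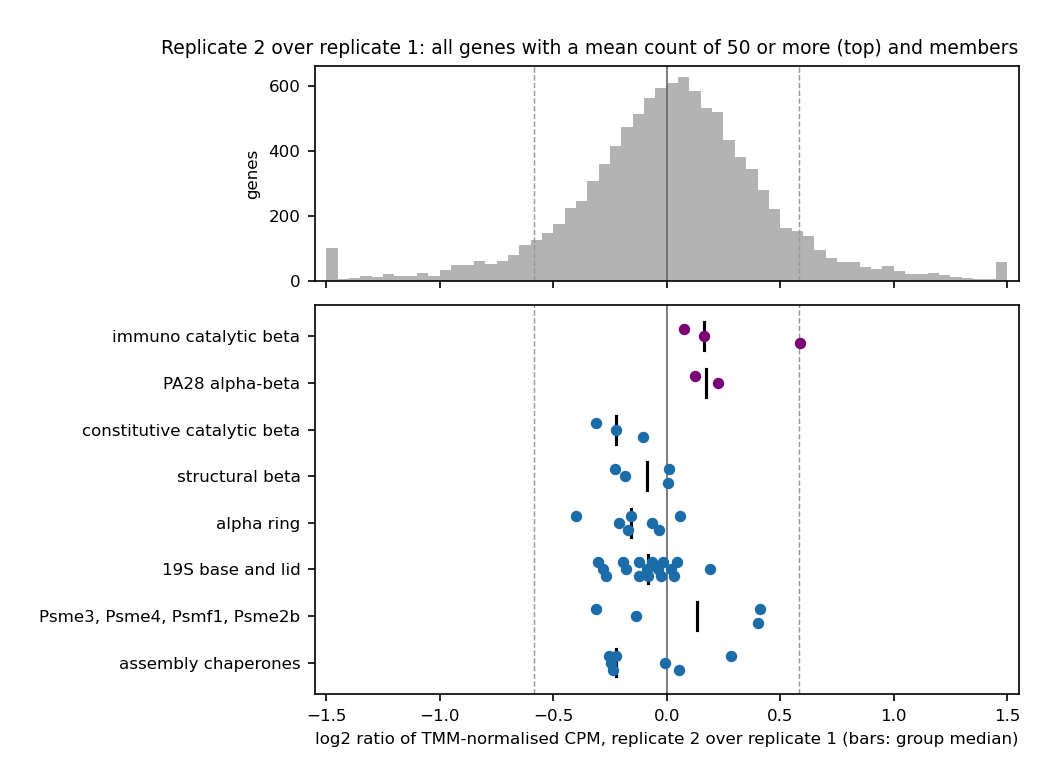
Log2 ratio of TMM-scaled CPM, replicate 2 over replicate 1. The upper panel is the distribution over 10445 genes, with values beyond 1.5 gathered in the end bins, and the lower panel shows the 47 members by role with group medians as bars. Dashed lines mark 1.5-fold. The immunoproteasome catalytic and PA28 genes lie above 0 and the 3 constitutive catalytic genes below 0, and only Psmb10 reaches a dashed line.

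Most members were carried by 1 transcript. Over the 40 members at 20 TPM or more on average, the median share of the leading transcript was 96.0% of TPM, and it was over 90% in 27 and under 50% in 2, Psma3 and Psmd13. By mean share the leading transcript was protein coding in 39 of the 40. The exception was Psma3, led by Psma3-201 by mean and in replicate 2, by the coding Psma3-204 in replicate 1 and by Psma3-203 in the second quantification. Of the 40, 38 had the same leader in the second quantification. Transcripts without a coding annotation held over 20% of TPM by mean share in 6 of the 40. These were Psmb8, Psmb9, Psmb10 and Psme2 of the immunoproteasome genes, with Psma3 and Psmd13. In Psme2 the short entry Psme2-203 held 9.53% and 26.9% in replicates 1 and 2. The same shares over all genes were not computed, so these counts are not set against a background. Psmb8-203, the leader of Psmb8, held 68.6% and 75.7% in replicates 1 and 2, and the retained-intron Psmb8-205 held 24.0% and 18.6%. Psmb9-204 held 62.0% and 69.6% of Psmb9, and Psmb10-201 held 71.5% and 70.5% of Psmb10. Among the constitutive genes, Psmb5-201 held 98.7% and 99.2%, Psmb6-201 94.9% and 93.7% and Psmb7-201 99.8% in both libraries. All 3 constitutive leaders were above all 3 immunoproteasome leaders.

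In 2 genes the transcript make-up changed the level itself. The coding transcript Psme2-208 stood at 325 and 326 TPM in replicates 1 and 2, while the 185-base retained-intron entry Psme2-203 stood at 37.2 and 129 TPM on 5.45 and 37.6 estimated counts. In the first quantification the TPM difference of Psme2 between the libraries lies in that short entry. In the second quantification Psme2-203 stood at 21.7 and 25.8 TPM and the coding transcripts of Psme2 at 274 and 247 TPM. For Psma3, the first quantification put 51.8 and 30.1 TPM in the coding Psma3-204, against 5.36 and 1.33 TPM in the second. Non-coding annotations held 64.7% of Psma3 in the first, led by the nonsense-mediated-decay transcript Psma3-201 at 47.8 and 38.0 TPM. The gene as a whole was at 0.569 and 0.560 of its first TPM in the second quantification, against member medians of 0.846 and 0.783. The coding level of Psma3 is uncertain. Psmc3 was split between coding transcripts, with Psmc3-202 at 77.4 and 65.8 TPM and Psmc3-210 at 71.9 and 64.0 TPM.

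**Figure D4:**
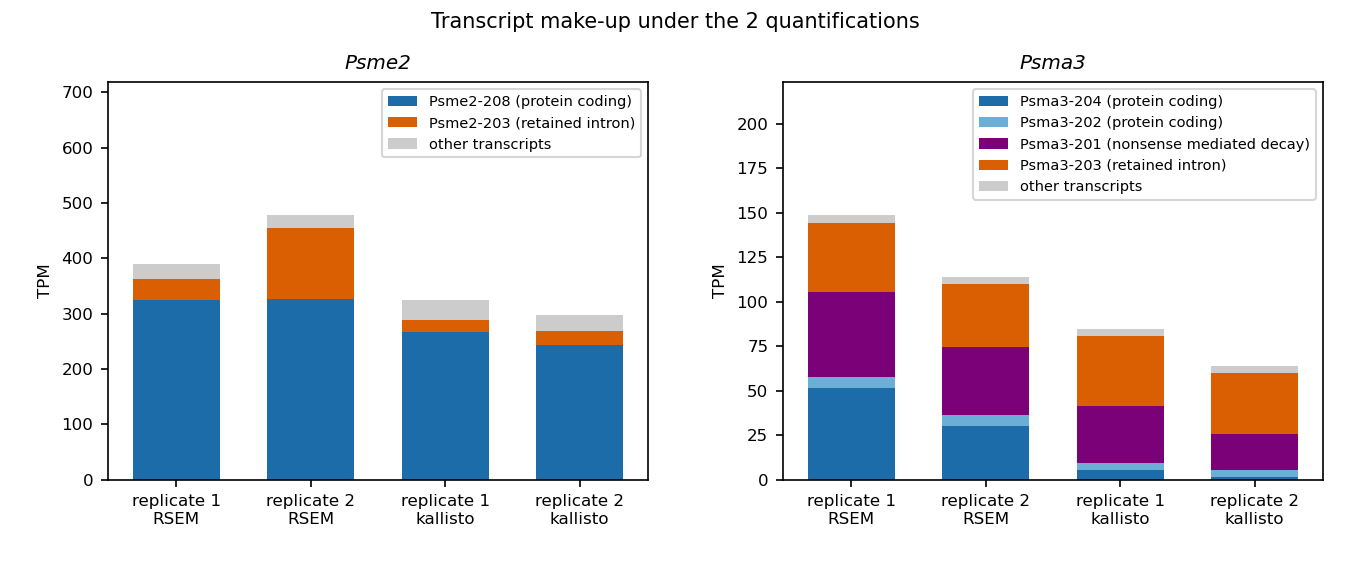
TPM of Psme2 (left) and Psma3 (right) by transcript, in each library under each quantification. Stacked bars are transcripts, coloured by annotation, and grey holds the rest. Under RSEM the blue coding Psme2-208 is level between the libraries and the orange Psme2-203 is not. Under kallisto Psme2-208 stands at 267 and 243 TPM and Psme2-203 at 21.7 and 25.8 TPM. The coding Psma3-204 falls to 5.36 and 1.33 TPM under kallisto. The coding Psma3-202 stands at 4.11 and 3.88 TPM there, against 5.84 and 6.25 TPM under RSEM.

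Neighbours and copies bear on some levels. Psmb9 shares 212 exonic bases with Tap1 on the opposite strand, a gene at 92.9 and 104 TPM in replicates 1 and 2, and Psmb7 shares 405 with Nek6, at 29.0 and 32.8 TPM. The use of strand in counting was not given in the sources used here, so reads of these stretches cannot be assigned with certainty. Of the 31-base words of Psmb5 transcripts, 71.7% also occur elsewhere in the annotation, chiefly in the pseudogene Gm3375, which stood at 0 and 0.24 TPM. For Psma5 the share was 61.0%, with its main partner Gm8394 at 0.75 and 0.61 TPM. For Psmb6 it was 6.24%, and for Psmb10 no word was shared.

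The genes that work beside the proteasome were present throughout. Of 16 partner and ubiquitin genes, 15 were matched by symbol, all 15 at 1 TPM or more in both libraries, with a median of 60.2 TPM. The ubiquitin precursor gene Ubb stood at 786 and 803 TPM in replicates 1 and 2, and the shuttle gene Ubqln2, at 15.4 and 15.9 TPM, and the ligase gene Ube3c, at 8.81 and 8.20 TPM, were the lowest. In replicate 2, 7 of the 15 were higher and 8 lower, with a median log2 ratio of -0.06 and 0 at 1.5-fold. Of the 7 regulators, 7 were at 1 TPM or more in both, led by Irf1, which drives immunoproteasome genes, at 799 and 753 TPM, and by the oxidative stress factor gene Nfe2l2 at 196 and 286 TPM. The lowest regulators by mean were Akirin2, for the nuclear import of proteasomes, at 31.03 and 23.2 TPM, and Ddi2, for the protease that activates Nfe2l1, at 6.86 and 6.39 TPM. Nlrc5, which drives MHC class I genes, overlapped Akirin2 at 26.9 and 27.4 TPM. Their median log2 ratio was 0.13, with 6 of 7 higher in replicate 2, against 53.5% of all genes, and 1 of 7, Nfe2l2, past 1.5-fold, a share near the 14.6% of all genes.

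The peptide-loading genes, which carry proteasome products to MHC class I, had a median of 247 TPM over 9 genes, all 9 at 1 TPM or more in both libraries, while Tapbpl, Tap2 and Erap1 averaged 16.6, 33.6 and 34.2 TPM, under the members' median of 69.6 TPM. B2m, the light chain of class I, led at 7190 and 7702 TPM in replicates 1 and 2, followed by the chaperone gene Calr at 1033 and 697 TPM. The lowest were Tapbpl, a peptide editor, at 15.3 and 17.9 TPM, and Tap2, a transporter chain, at 32.4 and 34.8 TPM. Of the 9, 8 were higher in replicate 2, against 53.5% of all genes, with a median log2 ratio of 0.22. Tapbp, for the loading chaperone tapasin, at 325 and 461 TPM, was the only one past 1.5-fold, and 1 of 9 is near the 14.6% of all genes. Calr was the exception at -0.42.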

How the data were processed

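PolyA RNA of 1 group of 2 libraries was analysed. Per the file headers, the gene and first transcript tables hold expected counts, TPM and each transcript's share of its gene in percent, as the authors deposited them under RSEM's column names. Estimated counts and TPM under kallisto's names fill the other transcript table, per the file headers. The deposited notes name mm10 and GENCODE M21. Tool versions and strandedness are not given in the sources used here.

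Expected counts were rounded. Entries that are no mouse gene held 0.141% and 0.134% of counts and were left out. Ratios between replicates used TMM factors of 1.06 and 0.944 from edgeR 4.0.16 (R 4.3.3), with DESeq2 1.42.0 size factors as an alternative. The spread is edgeR's common dispersion over genes with 10 counts or more. Its code was run on counts simulated with that same dispersion, which cannot show how well the value describes these libraries. The libraries are not 1 library deposited 2 times (chi-square of their counts over genes, 120.8 per degree of freedom, 12177 degrees), which says nothing of their spread. Ratios of TPM carry 95% Clopper-Pearson intervals on the counts, scaled by effective length. Reads carry no molecular identifiers, so intervals and floors speak for counting error alone. Python 3.11.15, pandas 2.3.3, scipy 1.17.1 and matplotlib 3.10.9 did the rest. The members and lists were chosen with earlier results of these data known. Values are given for the 8 contrasted genes, the highest and lowest of each role, the 5 furthest apart between replicates and members under 1 TPM. Of each pathway list the highest 2 and lowest 2 are named, except 1 gene that is not reported here. Transcripts, sequence copies and other genes were chosen after their values were seen. Alternatives were the second quantification, posterior mean TPM, coding transcripts, other minimums and scalings, a pseudocount and each library alone.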

Additional observations from a re-analysis of the deposited data

How the results depend on the processing

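Over 50 alternatives of 9 results, 39 kept the direction and stayed within the replicate spread or within 1.5 times the count. For the ratios of TPM, leaving out 1 of the 2 libraries stays within their spread by construction. Those alternatives could fail only by a change of sign, yet they count among the 50. For the members' median log2 ratio of -0.08, the spread used was the median distance of all genes, 0.24. The -0.20 by TPM with no further scaling thus counted as kept, and the other minimum counts returned -0.08 unchanged. With coding transcripts alone the log2 ratio of summed catalytic TPM was -1.21, that of Psmb8 over Psmb5 0.95, that of Psmb9 over Psmb6 -3.61 and that of Psmb10 over Psmb7 -0.26, which reversed. The second quantification gave -3.15 for Psmb9 over Psmb6, 0.06 for Psmb10 over Psmb7 and 3.53 for PA28 alpha-beta over PA28 gamma. Without the Psmb9 and Psmb6 pair, an alternative chosen after seeing the data, the summed ratio reversed to 0.89. Leaving out 1 library gave -0.12 to 0.59 for Psmb10 over Psmb7, and reversed it without replicate 2. It gave 1.09 to 1.63 for Psmb8 over Psmb5 and -3.34 to -3.18 for Psmb9 over Psmb6. It gave -1.09 to -0.57 for the summed catalytic ratio and 3.50 to 4.14 for PA28. The count of members 1.5-fold or more apart, 1 in the report, was 0 by TPM with no further scaling and 3 for any count above 0, which adds Psma8 and Psmc3ip. The count of members whose leading transcript held under 50%, 2 in the report, was 1 in the second quantification and 2 to 4 with 1 library left out. The cause was not tested in these cases. No paired analysis was possible because the labels give 1 group. With 2 libraries no spread between animals can be measured, and the core chaperones, at 118 to 209 counts, limit smaller differences.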
